A study of Homo sapiens with 2 samples.

Results

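A set of 31 genes of the G2/M transition and of mitosis was compared between Huh7 cells with knockdown of NEIL3 and their control. They were chosen by name, as genes with established roles from mitotic entry to cytokinesis, and all 31 were found among the 56558 gene symbols of the expression table. Each gene was carried by 1 row, so no choice between rows was needed. The data comprised 1 library of Huh7 cells labelled Neil3 KD and 1 library labelled shGFP, with cells of both libraries at passages 5 to 8. Huh7 is an established human hepatocellular carcinoma line. By its name, shGFP is a hairpin control aimed at green fluorescent protein, which human cells lack. The means of NEIL3 depletion, and whether cells were a pool or a clone, were not given in the sources used here. Levels are given in FPKM, which are fragments per kilobase of transcript scaled to the mapped fragments of the library.

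The cell cycle is driven through G2 and mitosis by cyclin A and cyclin B bound to the kinase CDK1. Polo-like and Aurora kinases then build the spindle, the kinetochores attach chromosomes to it, and a checkpoint holds back the anaphase-promoting complex until every chromosome is attached. Most genes of this programme are silent in G0 and G1 and are switched on late in the cycle by the MuvB core with B-MYB and FOXM1. MuvB binds a promoter element named CHR (cell cycle genes homology region), which often lies near CCAAT boxes bound by NF-Y. The DREAM complex uses the same element to repress these genes. In liver cancer this programme is used as a measure of proliferation. In bulk RNA, fewer cells in G2 and mitosis and less RNA per such cell cannot be told apart.

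The promoters of 25 of the 31 genes were found in the RefSeq table (GRCh38.p14), as windows of 300 bases that end 50 bases after an annotated transcription start. Positions are counted from the start, with -1 as the base before it, and refer to the leftmost base of a match in the 5′ to 3′ direction of the gene. The motifs searched on both strands were TTTGAA, the CHR letters, and CCAAT, the NF-Y box. The windows of PLK1 and MKI67 are shown because these genes had the lowest and the highest ratio between the libraries, and that of CCNB2 because its ratio was next to the highest and its CHR lay at the same position. CCNB2 was added to the pair after its values were seen. Capitals mark the matches on either strand.
PLK1 (chr16:23678639-23678938, plus strand): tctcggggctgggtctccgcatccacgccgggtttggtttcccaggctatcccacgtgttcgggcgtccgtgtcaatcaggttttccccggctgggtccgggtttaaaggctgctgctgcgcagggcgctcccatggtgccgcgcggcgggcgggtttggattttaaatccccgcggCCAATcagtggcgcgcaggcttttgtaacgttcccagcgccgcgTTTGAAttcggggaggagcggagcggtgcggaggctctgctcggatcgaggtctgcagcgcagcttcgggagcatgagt
MKI67 (chr10:128126374-128126673, minus strand): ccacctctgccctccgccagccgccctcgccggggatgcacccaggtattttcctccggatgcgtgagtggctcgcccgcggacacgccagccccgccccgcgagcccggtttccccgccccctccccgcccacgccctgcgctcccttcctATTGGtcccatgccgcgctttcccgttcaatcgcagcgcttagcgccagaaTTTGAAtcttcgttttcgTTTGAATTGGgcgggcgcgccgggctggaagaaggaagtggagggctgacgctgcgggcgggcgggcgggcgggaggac
CCNB2 (chr15:59104896-59105195, plus strand): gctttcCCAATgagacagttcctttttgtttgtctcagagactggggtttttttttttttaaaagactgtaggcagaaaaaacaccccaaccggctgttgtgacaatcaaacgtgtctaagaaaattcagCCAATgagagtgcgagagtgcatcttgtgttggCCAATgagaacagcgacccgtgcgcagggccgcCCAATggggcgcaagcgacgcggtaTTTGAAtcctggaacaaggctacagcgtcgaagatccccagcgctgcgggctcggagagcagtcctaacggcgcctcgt
In all 3 windows a CHR match began at position -29. PLK1 had a single CCAAT box at -73, whereas CCNB2 had boxes at -244, -120, -87 and -54. MKI67 had another CHR match at -47 and CCAAT matches on the other strand at -98 and -24, the latter overlapping the CHR match at -29 by part of its letters.

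The 2 libraries were first compared for the identity of the cells and for NEIL3. NEIL3, a DNA glycosylase of base excision and crosslink repair, stood at 5.34 FPKM in the shGFP library and 2.84 FPKM in the Neil3 KD library, a ratio of 0.532. All 11 hepatocyte and hepatocellular carcinoma markers were at 1 FPKM or more in both libraries, and 9 were higher in Neil3 KD and 2 lower, with a summed level of 2902 FPKM in shGFP and 3939 FPKM in Neil3 KD. AFP (12.3 and 59.8 FPKM), APOA2 (265 and 1095 FPKM) and TTR (1.65 and 7.81 FPKM) differed most by ratio, and ALB stood at 1346 and 1272 FPKM. The part of these markers in the values below was not tested. Of 5 leukocyte markers only LYZ passed 1 FPKM (1200 and 2353 FPKM), of 5 endothelial markers only PECAM1 did, and 5 of 6 fibroblast markers did, with a summed level of 36.3 FPKM in shGFP and 36.2 FPKM in Neil3 KD. Mitochondrially encoded transcripts made up 23.1% of summed FPKM in shGFP and 26.3% in Neil3 KD. Library depth is unknown. Among 6118 genes of very low level, the commonest ratio of Neil3 KD over shGFP was sought only among ratios above 1. It was 1.286, with 666 of these genes within 2% of it. Such a ratio would correspond to a Neil3 KD library with 77.8% as many fragments as shGFP. Because ratios of 1 or less were not searched, this value cannot show which library was deeper. With 1 library in each group, no difference below has a replicate check, and "higher" and "lower" describe these libraries.

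The G2/M and mitosis genes were close between the libraries. None of the 31 differed by 1.5-fold or more in either direction, whether by log2 of FPKM with a pseudocount of 1 or by the plain ratio. Across the 14209 symbols with at least 1 FPKM in either library, 4.55% lay beyond 1.5-fold on the higher side in Neil3 KD and 4.48% on the lower side on the log2 scale, and 7.08% and 7.56% did by the plain ratio. At the smaller limit of 1.2-fold, MKI67 and CCNB2 were higher and PLK1 was lower. AURKA joined PLK1, at a log2 ratio of -0.27, when Neil3 KD was rescaled to an overall median ratio of 1. As deposited, the 2 higher genes and the 1 lower gene are 6.45% and 3.23% of the 31, beside 18% and 15.6% of all symbols. Over the 8644 symbols whose mean FPKM lay within the range of the 31 genes, the shares at 1.2-fold were 17% higher and 11.3% lower, and at 1.5-fold 3.42% and 2.5%. The summed level of the 31 genes was 1107 FPKM in shGFP and 1082 FPKM in Neil3 KD, a ratio of 0.978.

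**Figure D1:**
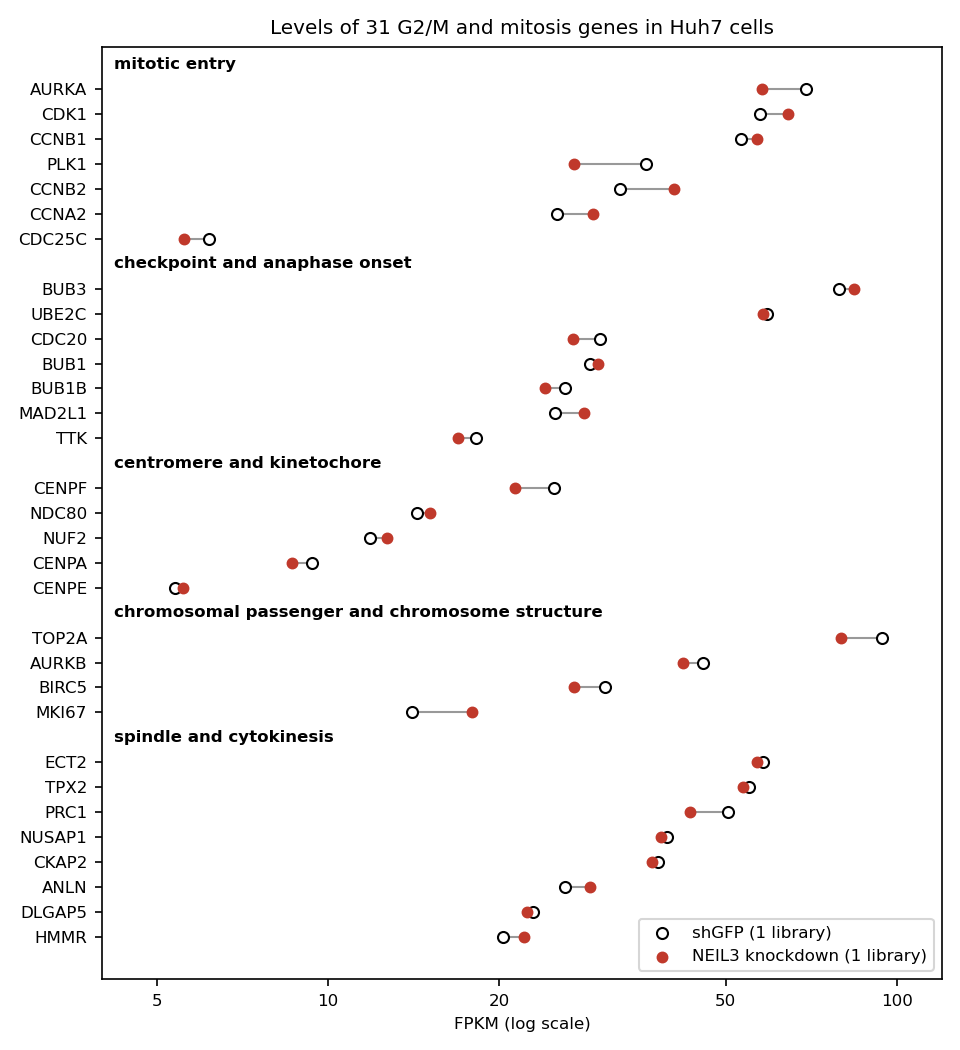
Level of each of the 31 genes in FPKM on a log scale, grouped by role. Open circles stand for the shGFP library and filled circles for the Neil3 KD library, 1 library each, and the widest gaps are those of PLK1 (36.1 and 27.0 FPKM), MKI67 (14.1 and 17.9 FPKM) and CCNB2 (32.6 and 40.6 FPKM).

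The log2 ratios of Neil3 KD over shGFP ran from -0.41 for PLK1 to 0.33 for MKI67, with a median of -0.03 and 13 genes above 0 and 18 below. Over all 14209 symbols the median was 0.02, with 53% above 0 and 47% below. Over the 8644 symbols of similar level it was 0.04, with 4863 above 0 and 3781 below. Of the 31 genes, 19 (61.3%) lay within 1.1-fold, beside 39.4% of all symbols and 43.7% of the symbols of similar level. The standard deviation of the log2 ratio across the 31 genes was 0.17, beside 0.35 across the symbols of similar level. The latter ran from -5.69 to 6.75, were not limited to protein-coding genes, and such extremes widen a standard deviation. The lower and upper quartiles were -0.12 and 0.09 for the 31 genes, and -0.12 and 0.20 for the symbols of similar level. These shares describe 2 libraries and carry no test. In the authors' deposited table, 0 of the 31 genes had a q-value under 0.05, and 13 of 58220 rows (0.0223%) did. Those values compare 2 libraries and not the conditions. The share is over all rows, including genes under 1 FPKM, and is so small that the 0 carries no information on the 31 genes.

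**Figure D2:**
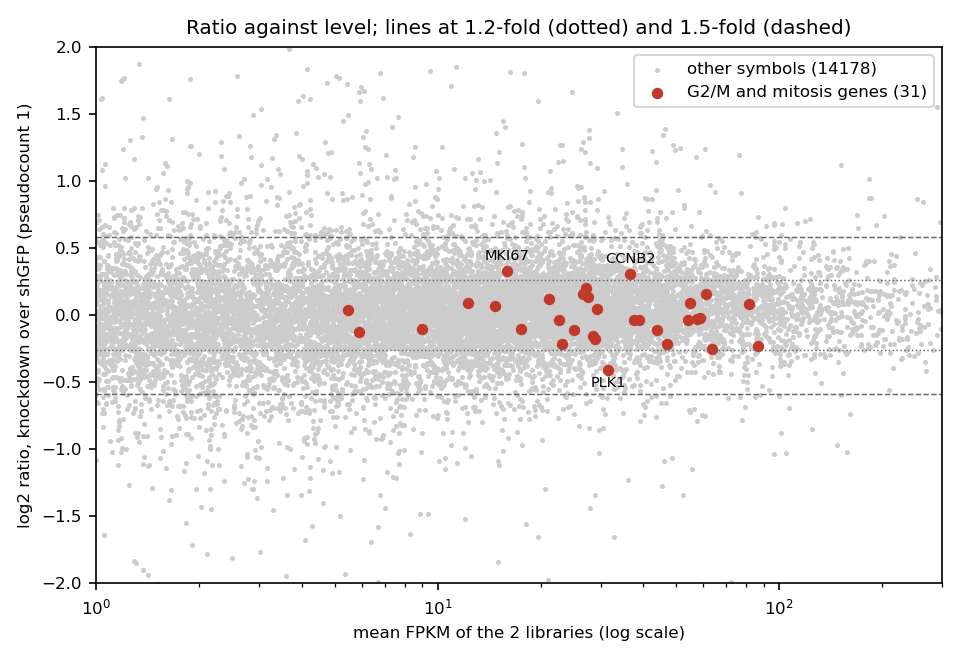
Log2 ratio of Neil3 KD over shGFP (pseudocount of 1 FPKM) against mean FPKM on a log scale, with the 31 genes in red and 14178 other symbols in grey, of which 689 lie outside the drawn ranges. All 31 genes sit inside the dashed lines at 1.5-fold, and PLK1, MKI67 and CCNB2 lie beyond the dotted lines at 1.2-fold.

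The genes that set mitotic entry pointed in both directions. CCNB2, which encodes cyclin B2, stood at 32.6 FPKM in shGFP and 40.6 in Neil3 KD, a ratio of 1.25 (ENSG00000157456, chromosome 15, 59105078 to 59125045, plus strand, GRCh38). CCNB1, which encodes cyclin B1, was at 53.2 and 56.7 FPKM, and CCNA2, for cyclin A2, at 25.2 and 29.2 FPKM. Their kinase CDK1 was at 57.5 and 64.3 FPKM, a ratio of 1.12. All 3 cyclins and CDK1 were thus higher in the Neil3 KD library, by ratios of 1.07 to 1.25. The other 3 genes of this group were lower, as deposited only PLK1 by 1.2-fold or more. PLK1, the polo-like kinase that promotes mitotic entry and spindle assembly, stood at 36.1 FPKM in shGFP and 27.0 in Neil3 KD, a ratio of 0.747 (ENSG00000166851, chromosome 16, 23677656 to 23690367, plus strand). AURKA, the kinase that activates PLK1 at centrosomes, was at 69.1 and 58.0 FPKM, a ratio of 0.839. CDC25C, a phosphatase that removes the inhibitory phosphates of CDK1, was low, at 6.17 and 5.58 FPKM. Over these 7 genes the median log2 ratio was 0.09, with 4 above 0 and 3 below.

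Quotients between partners do not depend on the scaling of a library. CDK1 was 1.08 times the level of CCNB1 in shGFP and 1.13 times in Neil3 KD. PLK1 was 0.679 times the level of CCNB1 in shGFP and 0.476 times in Neil3 KD, so that this quotient differed by a factor of 0.702. It was the widest shift among 11 partner quotients computed, which otherwise differed by factors of 0.798 to 1.05. No other pair held PLK1, which had the lowest ratio in the gene set (0.747), while CCNB1 had a ratio of 1.07. The width of this shift therefore restates the ratios of PLK1 and CCNB1 and is not a separate observation. AURKA over its activator TPX2 went from 1.26 to 1.08, while the partners NDC80 and NUF2 kept quotients of 1.21 and 1.19.

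The spindle checkpoint genes and those of anaphase onset stayed within 1.2-fold. BUB1 and BUB1B encode related checkpoint proteins that reach kinetochores with BUB3. BUB1 was at 28.8 FPKM in shGFP and 29.8 in Neil3 KD, BUB1B (BUBR1) at 26.1 and 24.0, and BUB3 at 79.2 and 83.9. TTK, the MPS1 kinase that starts checkpoint signalling, was at 18.2 and 16.9 FPKM. MAD2L1 (MAD2), which binds CDC20 in the inhibitory complex, was at 25.04 and 28.12 FPKM, the highest ratio of the group at 1.12. CDC20, the activator of the anaphase-promoting complex and the target of the checkpoint, was at 30.1 and 27.0 FPKM, the lowest ratio at 0.896. Its level was above that of MAD2L1 in shGFP, by a quotient of 1.2, and below it in Neil3 KD, by 0.959. UBE2C, the ubiquitin-conjugating enzyme that works with the complex, was almost equal at 59.0 and 58.2 FPKM. The median log2 ratio of these 7 genes was -0.02.

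The centromere and kinetochore genes included the least abundant of the 31. CENPE, a kinesin motor that moves chromosomes to the spindle equator and so also belongs to the kinesin family, had the lowest level in both libraries, at 5.39 FPKM in shGFP and 5.56 in Neil3 KD. CENPA, the histone H3 variant that marks the centromere, was at 9.36 and 8.63 FPKM. NDC80 and NUF2, which pair in the microtubule-binding complex of the kinetochore, were at 14.4 and 15.1 FPKM and at 11.9 and 12.7 FPKM. CENPF, a large protein of the nuclear matrix and the outer kinetochore, was at 24.99 and 21.34 FPKM, a ratio of 0.854. The other 4 genes lay within 1.1-fold, and the median log2 ratio of the 5 was 0.04.

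Chromosome structure and the chromosomal passenger complex held the most abundant of the 31 genes in shGFP and the highest ratio. TOP2A, the topoisomerase that untangles sister chromatids, stood at 94.1 FPKM in shGFP and 79.9 in Neil3 KD, a ratio of 0.849. MKI67, the proliferation marker Ki-67 that coats mitotic chromosomes, was at 14.1 and 17.9 FPKM, a ratio of 1.27 (ENSG00000148773, chromosome 10, 128096659 to 128126385, minus strand). These genes, both used as proliferation markers, therefore differed in opposite directions. AURKB, the kinase of the passenger complex, was at 45.6 and 42.1 FPKM, and its partner BIRC5 (survivin) at 30.7 and 27.1 FPKM. Of the 4 genes, 3 were below 0 in log2 ratio, with a median of -0.14, and MKI67 was above.

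The genes of the spindle and of cytokinesis included 5 of nearly equal level. TPX2, a spindle assembly factor, stood at 54.9 FPKM in shGFP and 53.5 in Neil3 KD. NUSAP1, a microtubule bundler, was at 39.4 and 38.5 FPKM, DLGAP5 (HURP), which stabilises kinetochore fibres, at 23.0 and 22.4, and CKAP2, a microtubule-associated protein, at 38.02 and 37.12. ECT2, the exchange factor that activates RhoA at the cleavage site, was at 58.0 and 56.8 FPKM. The ratios of these 5 genes lay between 0.975 and 0.979. HMMR, a spindle protein and hyaluronan receptor, was higher at 20.3 and 22.1 FPKM, and ANLN (anillin), a scaffold of the contractile ring, at 26.1 and 28.8. PRC1, which crosslinks microtubules of the central spindle, was lower at 50.4 and 43.3 FPKM, a ratio of 0.860. The median log2 ratio of the 8 genes was -0.03.

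The order of levels was close to the same in both libraries, with Spearman's rho of 0.968 across the 31 genes, which share these libraries and are not independent. TOP2A ranked first and BUB3 second in shGFP, and BUB3 first and TOP2A second in Neil3 KD. PLK1 moved furthest, from rank 13 to rank 19, and CCNA2 from rank 20 to rank 15. CENPE, CDC25C, CENPA and NUF2 held the last 4 ranks in both. Among all symbols of 1 FPKM or more the genes lay between percentile 33.2 (CENPE) and percentile 94.1 (TOP2A) of mean FPKM, with a median percentile of 77.3. Neighbours in this order cannot be told apart without replicates.

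Letters of the CHR were common in the promoters of these genes. TTTGAA was found in 22 of 31 windows (71.0%), which belong to 25 genes, some with several annotated starts, and in 15.2% of all 35116 RefSeq windows of the same length. By gene, 19 of 25 (76.0%) held it in at least 1 window, beside 18.2% of 27305 symbols. CCAAT was found in 71.0% of the windows and 34.6% of all windows. Both motifs occurred together in 54.8% of the windows and 5.90% of all windows. TTCGAA, a CHR variant added to the search later, occurred in the windows of BUB1 and NDC80 and in 1.45% of all windows. A match is a description of the letters and not evidence of binding, and windows of 1 gene can overlap.

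The CHR matches lay near the start. Of 33 matches in the windows, 22 (66.7%) began within 50 bases of it, beside 27.2% of 6238 matches in all windows. CCAAT boxes lay further upstream, with a median position of -87 against -28 for the CHR. At least 2 CCAAT boxes were present in 14 windows (45.2%), beside 10.8% of all windows. Ratios between the libraries lay on both sides of 0 with and without the exact CHR letters. The 19 genes with them ran from -0.41 to 0.33 in log2 ratio with a median of -0.03, and the 6 without them (AURKB, BUB1, CCNA2, CCNB1, CENPE and CKAP2) from -0.11 to 0.20 with a median of 0.04. Of these 6, BUB1 holds the variant TTCGAA. No other spelling of the CHR was searched, so these 6 genes cannot be said to lack a CHR. The 15 genes with both motifs in 1 window had 5 above 0 and 10 below, with a median of -0.04, and the other 10 had 7 above and 3 below, with a median of 0.06. No test was made of these differences.

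**Figure D3:**
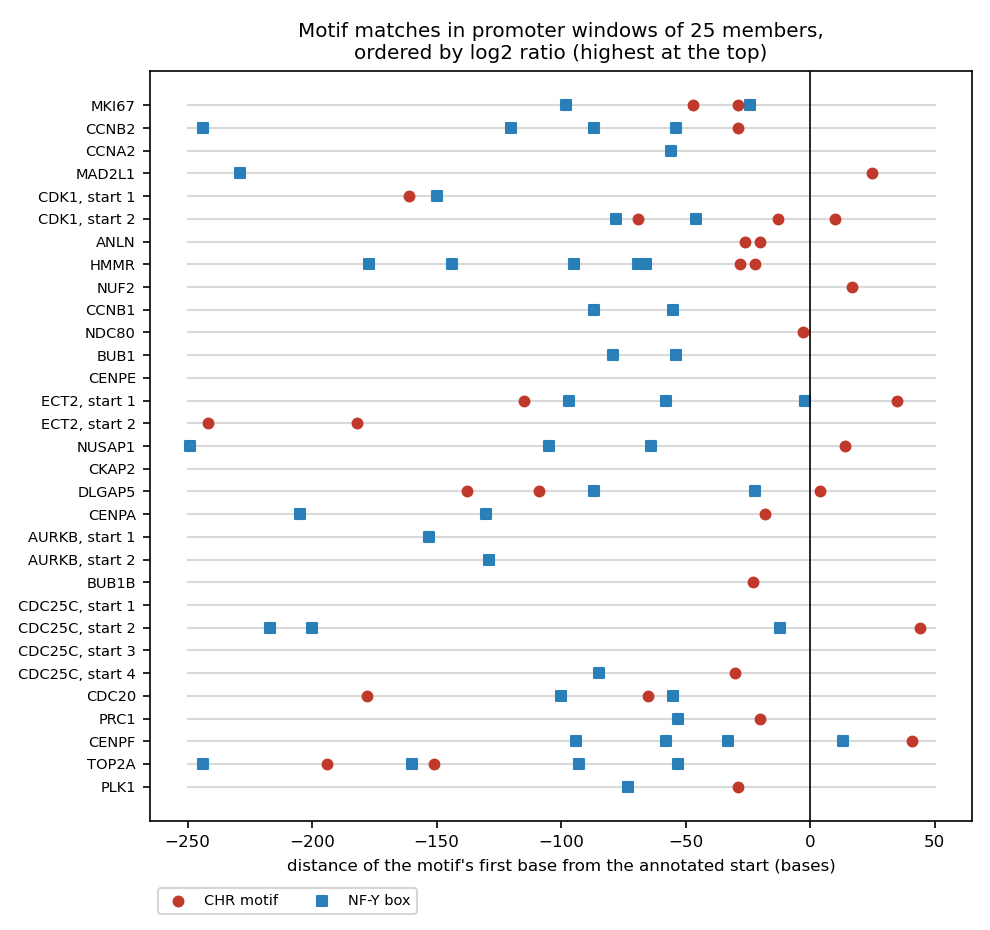
Position of CHR motifs (circles) and NF-Y boxes (squares) in 31 promoter windows of 25 genes, in bases from the annotated start (0 line), with genes ordered by log2 ratio of Neil3 KD over shGFP, the highest at the top. MKI67, CCNB2 and PLK1, at the ends of the order, each have a CHR match at position -29. CCNB2 was picked in part for this position, and genes between the ends have CHR matches close to it (CDC25C at -30, HMMR at -28).

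Genes around the 31 in the same pathways were also close between the libraries. Of 126 further genes in 7 lists of mitotic control, 123 had a mean of 1 FPKM or more. On the log2 scale 0 of these were higher by 1.5-fold or more and 1 was lower, beside 4.55% and 4.48% of all symbols. At 1.2-fold 11 were higher and 8 lower, which is 8.94% and 6.5% of the 123 beside 18% and 15.6% of all symbols, and the median log2 ratio was 0.01. The exception was NCAPD3, a subunit of condensin II that compacts chromosomes, at 21.47 FPKM in shGFP and 13.03 in Neil3 KD. NCAPD2, the matching subunit of condensin I, was at 34.1 and 27.4 FPKM. Their list, condensin and cohesin, had a median log2 ratio of -0.02 over 18 genes, with 8 above 0 and 10 below. At 1.2-fold 1 of the 18 (5.56%) was higher and 2 (11.1%) were lower. The kinesin KIF15 was at 2.65 and 1.62 FPKM, at least 1.5-fold lower only by the plain ratio of 0.611, and the spindle pole protein NUMA1 at 30.1 and 36.4.

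The list of regulators of these genes (DREAM, B-MYB, FOXM1 and NF-Y subunits) had the highest median log2 ratio of the lists, 0.16 over 16 genes. Of the 16, 12 were above 0 and 4 below, where 53% of all symbols were above 0. At 1.2-fold on the log2 scale 3 (18.75%) were higher and 1 (6.25%) lower, beside 18% and 15.6% of all symbols. None of the 16 was 1.5-fold apart, where on the log2 scale 4.55% of all symbols were that much higher and 4.48% lower. MYBL2, which encodes B-MYB, stood at 18.8 FPKM in shGFP and 26.5 in Neil3 KD, a ratio of 1.41, and TFDP2, an E2F partner, at 11.0 and 7.96. FOXM1 was close, at 25.6 and 26.9 FPKM, and is named after its values were seen.

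In the list of mitotic entry control, ARPP19, an inhibitor of the phosphatase that opposes CDK1, was at 70.4 and 105 FPKM, just under 1.5-fold. WEE1, the kinase that inhibits CDK1, was at 32.4 and 25.7 FPKM. The list had a median of 0.07 over 14 genes. Subunits and regulators of the anaphase-promoting complex had a median of 0.07 over 18 genes, with CDC16 at 34.7 and 44.7 FPKM and CDC26 at 11.6 and 15.2 FPKM. Checkpoint, passenger and cohesion genes had a median of -0.01 over 16 genes, with ZWINT at 23.7 and 28.8 FPKM and the histone kinase HASPIN (listed as GSG2) at 6.90 and 5.66 FPKM.

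Of the further kinetochore genes 10 were above 0 and 14 below, with a median of -0.09, where 53% of all symbols were above 0 and 47% below. At 1.2-fold 1 of 24 (4.17%) was higher and 3 (12.5%) were lower, beside 18% and 15.6% of all symbols. CENPH was at 24.7 and 17.9 FPKM and CENPU at 5.99 and 4.43 FPKM, both of the constitutive centromere network. Of the 26 listed, 2 were under a mean of 1 FPKM. SKA1 was listed at the floor of the table in both libraries, and SPC25, which forms 1 complex with NDC80, NUF2 and SPC24, was at 0.132 and 0.943 FPKM, where SPC24 was at 7.06 and 7.68. In the spindle list KIFC1 was likewise low, at 0.0294 and 1.15 FPKM. Such low values of genes that dividing cells use can be failed estimates, so no fold is given.

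The 26 genes of G1/S and DNA replication had a median log2 ratio of -0.01, with 13 above 0 and 13 below. On the log2 scale 0 of the 26 were 1.5-fold apart, beside 4.55% of all symbols higher and 4.48% lower. At 1.2-fold 4 were higher and 2 lower, which is 15.4% and 7.69% of the 26 beside 18% and 15.6% of all symbols. By the plain ratio at 1.5-fold CCNE2 (cyclin E2), at 2.80 and 4.56 FPKM, was higher. The licensing factor CDT1 had the lowest log2 ratio of the 26, at 39.1 and 26.4 FPKM.

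**Figure D4:**
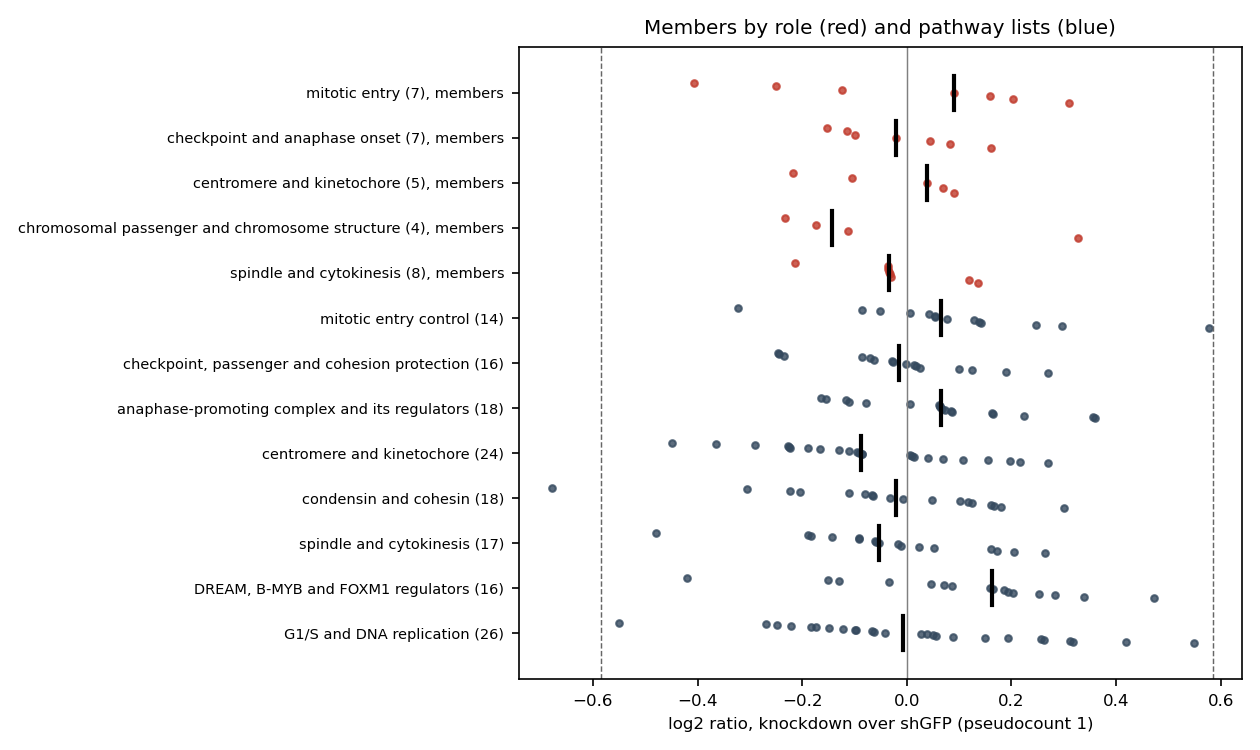
Log2 ratio of Neil3 KD over shGFP (pseudocount of 1 FPKM) for each gene, with the 31 genes by role in red and the 8 pathway lists in blue, the number of genes in brackets, black bars at the medians and dashed lines at 1.5-fold. Medians run from -0.14 for the passenger and chromosome structure genes to 0.16 for the DREAM, B-MYB and FOXM1 regulators.

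Among the 31 genes the ratios were loosely related to base composition. Across the 31 genes the log2 ratio had a Pearson correlation of -0.44 and a Spearman correlation of -0.40 with the GC content of the longest transcript, while over 11688 protein-coding symbols the values were -0.06 and -0.04. These are descriptions across genes of the same 2 libraries. The 5 genes of highest GC (CDC20, PLK1, AURKB, BIRC5 and UBE2C, 50% to 57.9%) had log2 ratios from -0.41 to -0.02, all below 0. Of all 31 genes 18 were below 0. The 5 of lowest GC (ECT2, CDK1, CKAP2, HMMR and CENPE, 35.28% to 38.04%) ran from -0.03 to 0.16. Between these ends some genes went the other way. MKI67, at 48.3% GC, had the highest log2 ratio (0.33), and TOP2A, at 39.1% GC, had -0.23. The part of GC content in the ratios was not tested. Transcript length showed a Spearman correlation of 0.02 with the log2 ratio.

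**Figure D5:**
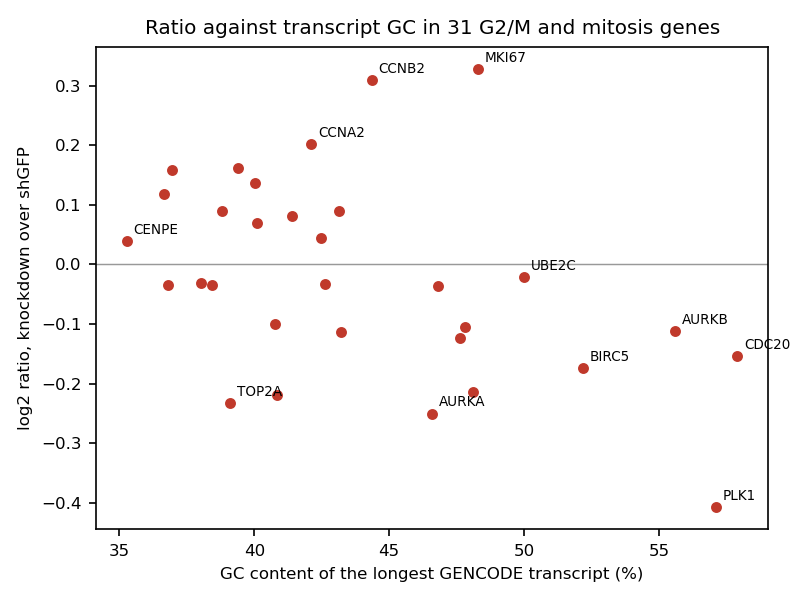
Log2 ratio of Neil3 KD over shGFP against the GC content of the longest transcript in percent for the 31 genes. The 5 genes of 50% GC or more all lie below 0, as do 18 of all 31 genes, and PLK1 is the lowest.

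The genes lie on 15 chromosomes, and the positions of all 31 in the deposited table are also those of GENCODE 29. Of these, 5 overlap another gene of 1 FPKM or more. CCNA2, CDC25C, NUF2 and ANLN overlap genes on the other strand (EXOSC9, FAM53C, RGS5 and KIAA0895), and CENPA overlaps SLC35F6 on its own strand. The strand setting of the counting was not among the sources used here, so these 5 levels are less certain. Pseudogenes named after 8 of the genes numbered 10, and 0 of them reached 1 FPKM.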

How the data were processed

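Total RNA from Huh7 cells was extracted with Trizol and made into strand-specific libraries, per the labels' protocols. The submitters' processing notes name bcl2fastq, HISAT2 2.1.0, Trimmomatic 0.36, Cufflinks 2.2.1, Cuffdiff and SAMtools 1.2, and the build GRCh38.p10. No source used here states the annotation release, the filters or the strand setting. The authors deposited 1 FPKM value per gene and library, per the file headers. Count tests need counts and were not run on FPKM, and the depth is unknown. The deposited ratio and log2 columns match quotients of the deposited FPKM and were not used. The deposited p-values and q-values are the authors' comparison of the 2 libraries, quoted only as a count. The floor of the table is 1e-05 FPKM, and no source used here says what a value there stands for.

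For the 213 symbols on several rows the row of highest mean FPKM was kept. The log2 ratio was log2((Neil3 KD + 1)/(shGFP + 1)), and the pseudocount of 1 FPKM shrinks the ratio of low genes; ratios beside FPKM values are plain. All symbols with 1 FPKM or more in either library (14209) served as background, and all 31 genes passed. Pathway genes were counted at a mean of 1 FPKM or more. With 1 library per group no test, error or p-value was possible. The text names the 31 genes, NEIL3 and, of each pathway list, up to 4 genes 1.5-fold apart by plain ratio, or the 2 with the largest log2 ratios where fewer than 2 were; SPC24, SPC25, SKA1, KIFC1 and FOXM1 were named after their values were seen. 1 further gene list is not reported here. The genes, lists and limits were chosen with earlier results of these data known. Promoters are RefSeq's (GRCh38.p14), and transcript GC and length come from GENCODE 29. Counting and motif search were tested on simulated data. Python 3.11.15, numpy 2.4.6, pandas 2.3.3 and matplotlib 3.10.9 were used.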

Additional observations from a re-analysis of the deposited data

How the results depend on the processing

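The medians of the 31 genes, of their 5 role groups and of the 8 pathway lists, and the counts of the 31 genes, were recomputed with pseudocounts of 0.1 and 5 FPKM, by plain ratio, with an FPKM minimum of 5 or none, with 2 rescalings and with summed rows. The count without the 5 genes that overlap another gene was added after the data were seen. The median of the 31 genes ran from -0.06 to -0.03, and no list median moved by more than 0.1 in log2 or changed sign. The median of all symbols, 0.02 as deposited, fell just below 0 without an FPKM minimum (-0.003) and under the 2 rescalings (-0.001 and -0.006). Rescaling Neil3 KD to an overall median of 0 (a shift of -0.02 in log2), or to the sum without mitochondrial transcripts (-0.03), made 2 genes at least 1.2-fold lower in place of 1, the added gene being AURKA at a log2 ratio of -0.27 and -0.28. The counts of the 31 genes at 1.5-fold were 0 in all settings run. No paired analysis was possible because there is 1 library per group, and no replicate could be left out. The missing replicates and unknown depth leave differences of the size seen for PLK1, MKI67 and CCNB2 without an error.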
